A study of Mus musculus with 40 samples.

Results

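The genes described here make or use citrate, isocitrate and itaconate in macrophages. They are *Acod1*, *Cs*, *Idh1*, *Idh2*, *Idh3a*, *Ogdh*, *Fh1*, *Mdh2* and *Slc25a1*, chosen by symbol as 9 of the 27179 genes in the deposited expression table, and each symbol matched 1 row. The libraries are poly(A) RNA-seq of bone marrow-derived macrophages (BMDMs), cells grown from mouse bone marrow in medium conditioned by L cells, which secrete the macrophage growth factor M-CSF. Cells came from adult male mice of a mixed C57BL/6J and 129 background, 4 WT and 4 *Cpeb4*-/-, and each mouse gave 5 libraries: untreated, or treated with 10 ng/ml LPS, a component of the outer membrane of Gram-negative bacteria, for 1, 3, 6 or 9 hr. This gives 10 groups of 4 libraries. CPEB4 binds a U-rich element in the 3′-UTR of mRNAs, and the *Cpeb4*-/- mice carry the deletion in every cell, not in macrophages alone. The 2 batches held 2 mice of each genotype each, but no cage held both genotypes and the background is mixed, so cage, strain alleles and genotype cannot be told apart.

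In the TCA cycle of mitochondria, citrate synthase (*Cs*) joins acetyl-CoA to oxaloacetate, the isocitrate dehydrogenase IDH3 (catalytic subunit *Idh3a*) makes alpha-ketoglutarate, the *Ogdh* enzyme oxidises this further, fumarase (*Fh1*) hydrates fumarate to malate, and malate dehydrogenase (*Mdh2*) regenerates oxaloacetate. *Idh1* in the cytosol and *Idh2* in mitochondria interconvert isocitrate and alpha-ketoglutarate with NADP rather than NAD, and *Slc25a1* carries citrate out of mitochondria. In macrophages exposed to LPS the cycle is known to be rerouted: ACOD1 (also called IRG1) makes itaconate, an antibacterial and immunomodulatory metabolite, from cis-aconitate, itaconate inhibits succinate dehydrogenase, and exported citrate feeds lipid synthesis.

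Values are rlog values, a log2 expression scale corrected for library size, in which genes with few reads are pulled toward their own mean over all libraries. They are not divided by gene length, so levels are compared between libraries and not between genes. Read depth per library is not in the table, and the precision rests on the spread of the 4 mice. The labels were checked against *Cpeb4*, whose rlog was 10.09 to 10.67 in WT and 8.74 to 9.66 in *Cpeb4*-/- cells at 6 hr (limma adjusted p = 0.0011), while the genotypes overlapped at 0, 1, 3 and 9 hr. The table sums reads over the whole gene, and where the deletion lies was not used here, so reads of the remaining exons may be counted. All 6 macrophage markers were expressed, with rlog values of 8.89 to 16.45, and *Adgre1* and *Csf1r* stayed above 15 in every library. Markers of other cells stayed at 7.22 or below. Of these, 0 of 4 B cell and 0 of 4 fibroblast markers passed the expression threshold of a mean rlog of log2 of 5. Those that passed were 2 of 5 neutrophil markers (*Camp* and *Ngp*, at most 5.00), 1 of 4 T cell markers (*Cd4*, at most 7.22) and 3 of 4 dendritic cell markers (at most 7.06). Single libraries weighed on the genotype comparisons over all genes: without *Cpeb4*-/- mouse 2 the number of genes called at 9 hr went from 1029 to 4575, without WT mouse 69 that at 1 hr from 251 to 2440, and without WT mouse 88 that at 3 hr from 481 to 2584. Results that rest on these libraries are given with and without them.

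The deleted protein recognises the cytoplasmic polyadenylation element (CPE), and the AU-rich element (ARE) is the binding site of mRNA-destabilising proteins such as TTP, so both motifs were looked for in the longest annotated 3′-UTR of each gene (GENCODE mouse release M21, build GRCm38, the same assembly as mm10). The motifs searched on the sense strand were TTTTAT and TTTTAAT for the CPE and ATTTA for the ARE, matches that overlap being counted separately. At least 1 CPE was found in 5 of the 9 genes, against 56.6% of 20983 genes with a 3′-UTR, and at least 1 ARE in 6 of the 9, against 65% of all. *Idh1* (chr1:65158616-65186500, minus strand) held 5 CPEs and 0 AREs in a 3′-UTR of 849 bases, and 14.2% of all genes held 5 or more CPEs. *Idh2* (chr7:80094846-80115392, minus strand) held the reverse, 0 CPEs and 2 AREs in 270 bases. *Acod1* (chr14:103046977-103056573, plus strand) held 2 CPEs and 1 ARE in 1065 bases. The sites of these 3 genes are shown because *Idh1* and *Idh2* were called between genotypes at 6 and 9 hr and *Acod1* makes itaconate, on the gene's own strand from 5′ to 3′ with the motif in capitals. A match is a description of the sequence and shows neither binding nor its absence.
*Idh1* CPE at chr1:65159315-65159338: aagttgaacTTTTATatatgttta
*Idh1* CPE at chr1:65159240-65159263: ggaaatttTTTTAATtgtatttta
*Idh1* CPE at chr1:65159230-65159253: ttaattgtaTTTTATtgtgtagta
*Idh1* CPE at chr1:65158716-65158739: ctgcatttcTTTTATataaatgtg
*Idh1* CPE at chr1:65158638-65158661: actgttaaTTTTAATtaaaatgaa
*Idh2* ARE at chr7:80094892-80094915: catactgtaATTTAtattgctctg
*Idh2* ARE at chr7:80094860-80094883: tggtgccatATTTAgctactaaaa
*Acod1* CPE at chr14:103056488-103056511: gcttagcagTTTTATtgatgtttt
*Acod1* CPE at chr14:103056499-103056522: ttattgatgTTTTATtaatcaccc
*Acod1* ARE at chr14:103055751-103055774: tgaggaattATTTAttaactctgg

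The other genes lie at chr10:128337734-128362479 (*Cs*), chr9:54586334-54604661 (*Idh3a*), chr11:6291633-6356642 (*Ogdh*), chr1:175600374-175625635 (*Fh1*), chr5:135778480-135790398 (*Mdh2*) and chr16:17925223-17928219 (*Slc25a1*). *Cs* held 2 CPEs and 3 AREs, *Idh3a* and *Fh1* each 1 CPE and 4 AREs, and *Ogdh* 0 CPEs and 3 AREs. *Mdh2* and *Slc25a1* held neither. In no gene did annotated exons share a base with exons of another gene on either strand. With the wider list of 7 CPE variants that the study scanned, 5 of the 9 genes again had a match, against 72.7% of all genes, and *Idh1* had 7.

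*Acod1* was the gene of the 9 that moved most. In untreated WT libraries its rlog was 13.22 (mouse 25), 13.24 (mouse 69), 13.23 (mouse 87) and 13.25 (mouse 88), and in untreated *Cpeb4*-/- libraries 13.25 (mouse 2), 13.30 (mouse 3), 13.25 (mouse 55) and 13.23 (mouse 62). The SD of 0.01 in untreated WT cells was below that of every treated WT group (0.05 to 0.17). Since rlog pulls low counts toward the gene's mean, the untreated level and the size of the rise need not be those of read counts. After 1 hr of LPS the WT mean was 15.44 ± 0.17 (SD, n = 4), after 3 hr 16.93 ± 0.11, after 6 hr 17.54 ± 0.05 and after 9 hr 16.96 ± 0.08. The order of the WT levels was thus untreated, 1 hr, then 3 hr and 9 hr, whose ranges overlapped, and 6 hr at the top. The rise over untreated WT cells on the log2 scale was 2.20 ± 0.07 (SE) after 1 hr of LPS, 3.69 after 3 hr, 4.30 after 6 hr and 3.73 after 9 hr, present in 4 of 4 mice each time (limma adjusted p = 6.4e-16, 1.4e-19, 3.4e-21 and 4.7e-20). *Cpeb4*-/- cells rose by 2.38 ± 0.06, 3.62, 4.13 and 3.47 at the same times (adjusted p of 7.5e-18 or less). In cultures measured as a whole, a change in the RNA of each cell cannot be told apart from a change in the share of cells that make it.

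*Acod1* then fell between 6 and 9 hr in all mice of both genotypes, by 0.58 ± 0.07 in WT (adjusted p = 7.5e-07) and by 0.66 ± 0.06 in *Cpeb4*-/- cells (adjusted p = 1.5e-08). After quantile normalization these falls were −0.34 and −0.31 (adjusted p = 0.0019 and 0.0017). At 9 hr the WT values were 16.91, 17.08, 16.91 and 16.97 and the *Cpeb4*-/- values were 16.60, 16.89, 16.80 and 16.60, so every *Cpeb4*-/- library lay below every WT library. The difference was −0.24 ± 0.08 (95% CI −0.42 to −0.06) and did not pass the test (adjusted p = 0.091). It was −0.19 in batch 1 and −0.29 in batch 2, and −0.20 without *Cpeb4*-/- mouse 2 (adjusted p = 0.075). In the fit of all 40 libraries with the mouse as a block it passed (adjusted p = 0.0063), and after quantile normalization it was −0.04 (adjusted p = 0.82). At 1 hr *Acod1* was instead 0.20 ± 0.08 higher in *Cpeb4*-/- libraries (15.60 to 15.67 against 15.22 to 15.62, adjusted p = 0.11), which passed with the mouse as a block (adjusted p = 0.016) and without WT mouse 69 (0.27, adjusted p = 0.042). The difference was 0.02 ± 0.04 in untreated cells, −0.05 ± 0.07 at 3 hr and −0.15 ± 0.07 at 6 hr (adjusted p = 0.78, 0.69 and 0.16).

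**Figure D1:**
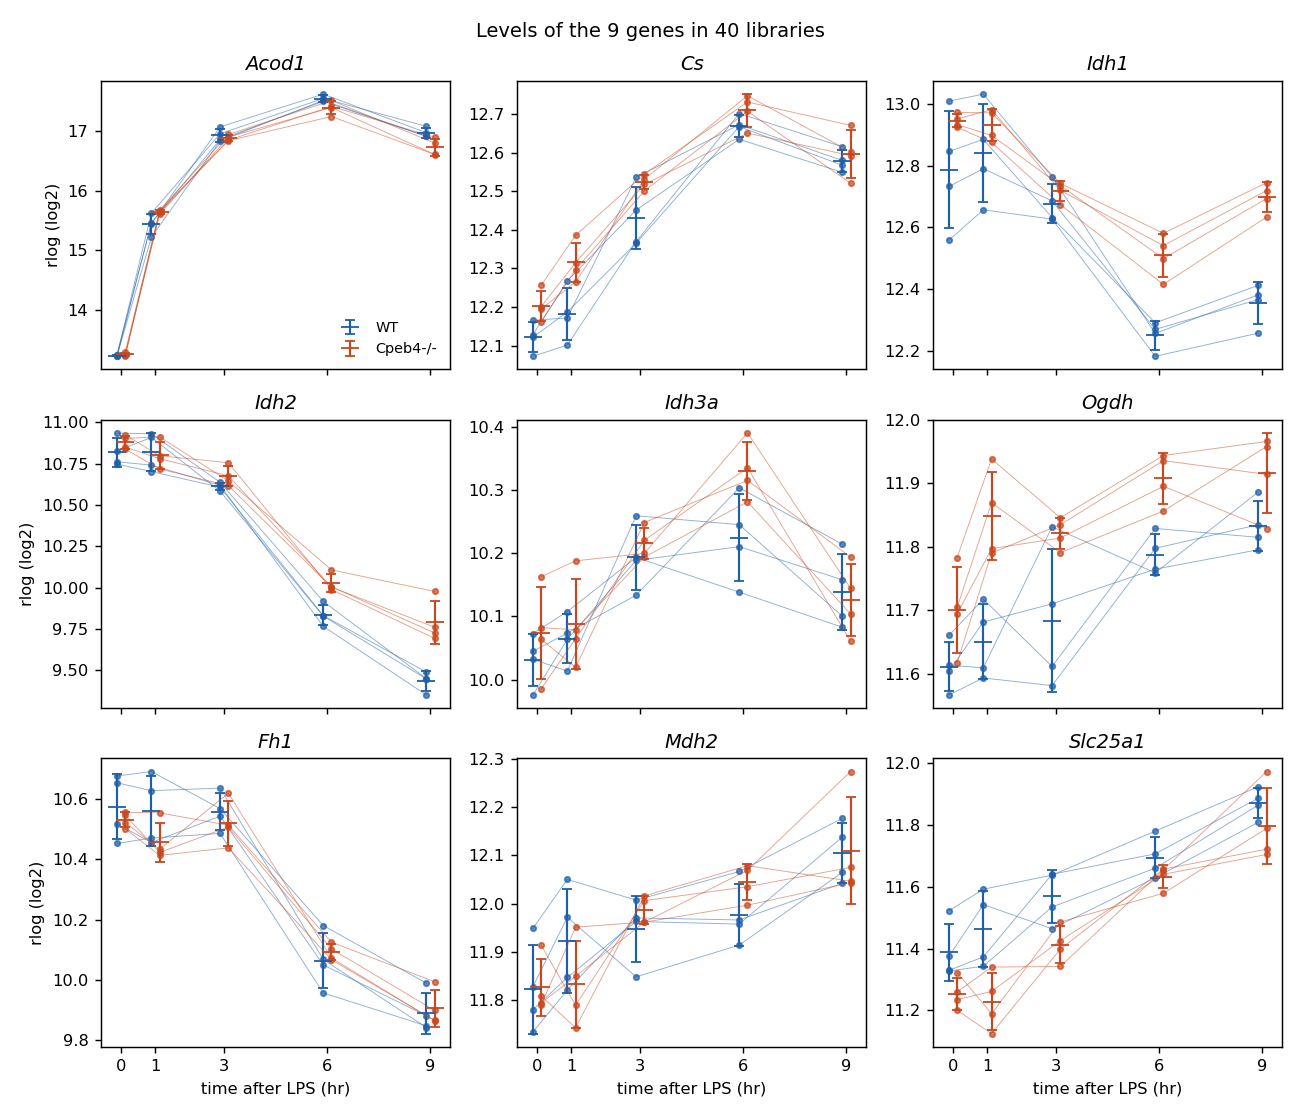
rlog values (log2) of the 9 genes against hours of LPS, with WT in blue and *Cpeb4*-/- in orange. Each thin line joins the 5 libraries of 1 mouse, the horizontal marks are group means and the bars are ± SD (n = 4). *Idh1* and *Idh2* separate by genotype at 6 and 9 hr, and *Acod1* rises from 13.2 to 17.5 in WT cells by 6 hr.

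Both NADP-dependent isocitrate dehydrogenases fell after LPS and were higher in *Cpeb4*-/- than in WT cells at the late times. At 6 hr the *Idh1* values were 12.27 (mouse 25), 12.18 (mouse 69), 12.29 (mouse 87) and 12.26 (mouse 88) in WT and 12.58 (mouse 2), 12.54 (mouse 3), 12.50 (mouse 55) and 12.42 (mouse 62) in *Cpeb4*-/- libraries. At 9 hr they were 12.37, 12.26, 12.41 and 12.38 in WT libraries and 12.75, 12.72, 12.69 and 12.63 in *Cpeb4*-/-. At both times every *Cpeb4*-/- library was above every WT library. *Idh1* was 0.26 ± 0.04 higher at 6 hr (adjusted p = 0.0024) and 0.34 ± 0.05 higher at 9 hr (1.27-fold, adjusted p = 0.0044). The 9 hr difference was 0.30 in batch 1 and 0.39 in batch 2, and all 16 alternative settings at each of the 2 times kept the call. Without *Cpeb4*-/- mouse 2 it was 0.33 (adjusted p = 0.0012).

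Before LPS the *Idh1* mean was also higher in *Cpeb4*-/- cells, with all 4 values inside the WT range. Untreated WT values spread from 12.56 to 13.01 around a mean of 12.79 ± 0.19 and untreated *Cpeb4*-/- values from 12.93 to 12.97 around 12.95 ± 0.02, a difference of 0.16 ± 0.08 that did not pass (adjusted p = 0.32). The groups overlapped there because WT mouse 88 lay at 13.01. Taken within each mouse, WT cells changed from untreated to 9 hr by −0.43 ± 0.14 (SD, n = 4), while *Cpeb4*-/- cells changed by −0.25 ± 0.03. After quantile normalization these falls were larger, at −0.93 and −0.77, as were those at 6 hr (−1.25 and −1.13, against −0.54 and −0.44). The genotype difference at 9 hr exceeded that in untreated cells by 0.19 ± 0.09, and this interaction did not pass (adjusted p = 0.40, and 0.069 with the mouse as a block). After 1 hr *Idh1* had changed by 0.05 ± 0.08 in WT and −0.01 ± 0.04 in *Cpeb4*-/- cells, but after quantile normalization by −0.23 and −0.31, which passed (adjusted p = 0.025 and 2.1e-06). Its mean was lowest at 6 hr in both genotypes, and from there to 9 hr it changed by 0.19 ± 0.04 in *Cpeb4*-/- (adjusted p = 0.00034) and 0.10 ± 0.08 in WT cells (adjusted p = 0.29). After quantile normalization these changes were 0.37 and 0.32, and that in WT passed too (adjusted p = 0.0022).

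On the deposited scale *Idh2* fell further than *Idh1*, but after quantile normalization the 6 hr fall of *Idh2* was the smaller one (−1.17 against −1.25 in WT, and −1.04 against −1.13 in *Cpeb4*-/- cells). At 9 hr the fall of *Idh2* was the larger one after quantile normalization too (−1.54 against −0.93 in WT, and −1.27 against −0.77 in *Cpeb4*-/- cells). In WT *Idh2* went from 10.75, 10.76, 10.94 and 10.83 in untreated cells to 9.83, 9.77, 9.92 and 9.83 at 6 hr and 9.49, 9.35, 9.45 and 9.45 at 9 hr. In *Cpeb4*-/- it went from 10.90, 10.84, 10.85 and 10.92 to 10.11, 10.00, 10.01 and 9.99 at 6 hr and 9.98, 9.76, 9.72 and 9.69 at 9 hr. The genotypes overlapped before LPS and were fully apart at both late times. Taken within each mouse, *Idh2* at 9 hr changed by −1.38 ± 0.09 (SD, n = 4) in WT, to 38.3% of its untreated level, and by −1.09 ± 0.13 in *Cpeb4*-/- cells, to 46.9% on this scale. The genotype difference was 0.06 ± 0.05 in untreated cells (adjusted p = 0.52), −0.02 ± 0.07 at 1 hr, 0.06 ± 0.05 at 3 hr, 0.19 ± 0.05 at 6 hr (1.14-fold, adjusted p = 0.017) and 0.36 ± 0.07 at 9 hr (1.28-fold, adjusted p = 0.014).

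Of the 9 genes, *Idh2* was the 1 whose genotype difference departed from that in untreated cells by the interaction test, by 0.29 ± 0.08 at 9 hr (adjusted p = 0.041, and 0.0055 with the mouse as a block). The call was lost when any 1 of the 8 mice was left out (0.24 to 0.34, adjusted p = 0.055 to 0.13), with eBayes without trend (adjusted p = 0.0504) and after quantile normalization (0.27, adjusted p = 0.12). The plain difference at 9 hr kept its call in all 16 alternatives. It was 0.26 in batch 1 and 0.45 in batch 2, and 0.29 without *Cpeb4*-/- mouse 2 (adjusted p = 0.0022), whose library had the highest *Idh2* value of that group. The 6 hr difference lost its call without that mouse (0.16, adjusted p = 0.062) and without WT mouse 69 (0.17, adjusted p = 0.053).

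On the deposited scale *Cs*, *Idh3a* and *Ogdh* rose by 6 hr, and for *Cs* and *Ogdh* the direction turned under quantile normalization. *Cs*, which starts the cycle, rose in WT from 12.12 ± 0.04 (SD, n = 4) to 12.67 ± 0.03 at 6 hr, by 0.55 ± 0.04 (SE, adjusted p = 3.5e-10), and in *Cpeb4*-/- from 12.20 ± 0.04 to 12.71 ± 0.04, by 0.51 ± 0.04 (adjusted p = 6.7e-11). No untreated library reached the lowest 6 hr library of its genotype. After quantile normalization the *Cs* change was −0.10 in WT and −0.11 in *Cpeb4*-/- cells. *Idh3a* went from 10.03 to 10.22 in WT and from 10.07 to 10.33 in *Cpeb4*-/- cells at 6 hr (0.19 ± 0.05 and 0.26 ± 0.05, adjusted p = 0.00070 and 2.4e-05), and averaged 10.14 and 10.13 at 9 hr. With the mouse as a block, the 9 hr level was still above untreated in WT (0.11, limma adjusted p = 0.040) but was not called in *Cpeb4*-/- cells (0.05, adjusted p = 0.25). The WT fall of *Idh3a* from 6 to 9 hr did not pass (−0.09, adjusted p = 0.12 with the block). The fall in *Cpeb4*-/- cells passed with the block (−0.21, limma adjusted p = 0.00025) and after quantile normalization (−0.18, adjusted p = 0.0027). After quantile normalization the 6 hr rise of *Idh3a* was 0.06 in WT, which did not pass (adjusted p = 0.20), and 0.13 in *Cpeb4*-/- cells (adjusted p = 0.014). On that scale the 9 hr change of *Idh3a* was 0.01 in WT and −0.05 in *Cpeb4*-/- cells, and neither passed (limma adjusted p = 0.81 and 0.34). Its genotype differences ran from −0.01 to 0.11 over the 5 times, and none passed.

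*Ogdh*, the E1 subunit of the alpha-ketoglutarate dehydrogenase complex, was the third gene called between genotypes at 6 hr. Its values there were 11.83, 11.76, 11.80 and 11.76 in WT and 11.90, 11.94, 11.94 and 11.86 in *Cpeb4*-/- libraries, which did not overlap. The difference of 0.12 ± 0.04 (1.09-fold) had an adjusted p of 0.045 and passed in 4 of 16 alternatives, with adjusted p up to 0.12 in the others and 0.064 with the mouse as a block. *Ogdh* was above WT on average at every time, by 0.09 ± 0.05 in untreated cells, 0.20 ± 0.05 at 1 hr, 0.14 ± 0.06 at 3 hr and 0.08 ± 0.05 at 9 hr (adjusted p = 0.33, 0.071, 0.18 and 0.29). With the mouse as a block the 1 hr and 3 hr differences passed (adjusted p = 0.0031 and 0.043). At 1 hr the *Cpeb4*-/- values of 11.79 to 11.94 lay above all WT values of 11.59 to 11.72, and without WT mouse 69 the difference was 0.21 (adjusted p = 0.045). At 3 hr it was 0.19 without WT mouse 88 (adjusted p = 0.023). The 9 hr difference passed without *Cpeb4*-/- mouse 2, whose *Ogdh* value (11.83) was the lowest of its group. The other *Cpeb4*-/- values were 11.97, 11.91 and 11.96, against 11.80 to 11.89 in WT. Without that mouse 4575 of 13005 genes were called at 9 hr, and 4 of the 9: *Idh1*, *Idh2*, *Ogdh* and *Slc25a1*.

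Fumarase and malate dehydrogenase, consecutive steps of the cycle, moved in opposite directions on the deposited scale, but not after quantile normalization. *Fh1* fell in WT from 10.57 ± 0.11 to 10.06 ± 0.09 at 6 hr and 9.89 ± 0.07 at 9 hr, by 0.51 ± 0.07 and 0.68 ± 0.07 (SE, adjusted p = 4.2e-07 and 7.7e-09). In *Cpeb4*-/- cells it fell by 0.44 ± 0.04 and 0.62 ± 0.04 (adjusted p = 8.3e-09 and 4e-11). Its changes at 3 hr were −0.02 ± 0.07 in WT and −0.01 ± 0.04 in *Cpeb4*-/- cells and did not pass, but after quantile normalization they were −0.19 and −0.17 and passed (adjusted p = 0.017 and 0.0027). *Mdh2* rose in WT from 11.82 ± 0.09 to 11.98 ± 0.06 at 6 hr and 12.11 ± 0.06 at 9 hr, by 0.15 ± 0.06 and 0.28 ± 0.06 (adjusted p = 0.021 and 0.00020), but after quantile normalization these changes were −0.39 and −0.10. At 3 hr the WT rise of *Mdh2* was 0.12 ± 0.06, which did not pass (adjusted p = 0.063). It passed with the mouse as a block (adjusted p = 0.014) and in 4 of 11 alternatives in all, of which quantile normalization gave a fall (−0.28, adjusted p = 0.00036). Neither gene passed the genotype test at any time: *Fh1* differences ran from −0.11 to 0.03 and *Mdh2* differences from −0.09 to 0.07, with adjusted p of 0.26 or more.

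*Slc25a1*, the mitochondrial citrate carrier, rose in WT from 11.39 ± 0.09 (SD, n = 4) in untreated cells to 11.87 ± 0.05 at 9 hr, by 0.48 ± 0.06 (SE, adjusted p = 5.3e-07), and in *Cpeb4*-/- from 11.25 ± 0.05 to 11.80 ± 0.12, by 0.54 ± 0.06 (adjusted p = 1.6e-08). After quantile normalization these rises were 0.18 and 0.28. The *Slc25a1* mean was lower in *Cpeb4*-/- libraries early. Untreated values were 11.33, 11.33, 11.52 and 11.37 in WT and 11.26, 11.24, 11.32 and 11.20 in *Cpeb4*-/-, and at 1 hr they were 11.37, 11.34, 11.59 and 11.54 against 11.34, 11.26, 11.19 and 11.12. In both sets every *Cpeb4*-/- value lay below every WT value, but the groups nearly touched. The highest *Cpeb4*-/- and lowest WT values were 11.3226 and 11.3275 in untreated cells, and 11.3403 and 11.3433 at 1 hr. The difference was −0.13 ± 0.05 in untreated cells (adjusted p = 0.23) and −0.23 ± 0.07 at 1 hr (adjusted p = 0.084), then −0.16 ± 0.06 at 3 hr, −0.06 ± 0.04 at 6 hr and −0.07 ± 0.06 at 9 hr (adjusted p = 0.13, 0.36 and 0.48). The 1 hr difference passed with the mouse as a block (adjusted p = 0.0051) and was −0.27 without WT mouse 69 (adjusted p = 0.043). Without WT mouse 88 the 3 hr difference was −0.19 (adjusted p = 0.027), and without *Cpeb4*-/- mouse 2 that at 9 hr was −0.13 (adjusted p = 0.032).

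Counted over the 9 genes, calls against untreated rose in number up to 6 hr on the deposited scale, as did the share of all tested genes. These shares are given beside each count because most genes moved. In WT cells 1 of 9 genes was called against untreated after 1 hr (33.9% of all genes), 5 after 3 hr (67.8%), 9 after 6 hr (77.9%) and 9 after 9 hr (71.5%). In *Cpeb4*-/- cells the counts were 3 after 1 hr (43.8%), 8 after 3 hr (71.3%), 9 after 6 hr (79.1%) and 8 after 9 hr (72.8%). After quantile normalization the WT counts at these times were 4, 7, 8 and 6 (38.1%, 68.1%, 76.9% and 70.2%). Those in *Cpeb4*-/- cells were 7, 7, 8 and 6 (49%, 72.4%, 78.1% and 71.7%). At 6 hr in both genotypes *Acod1*, *Cs*, *Idh3a*, *Ogdh*, *Mdh2* and *Slc25a1* exceeded their untreated levels, though *Cs*, *Ogdh*, *Mdh2* and *Slc25a1* did so on the deposited scale alone, and *Idh1*, *Idh2* and *Fh1* were below theirs. Both genotypes' changes are measured against their own untreated libraries. The median absolute change of the 9 genes at 6 hr in WT was 0.51, and that of all tested genes was 0.55. Between 6 and 9 hr 4 of 9 genes were called in WT (51.4%) and 7 in *Cpeb4*-/- cells (53.6%), 3 and 5 of them with a fall. After quantile normalization 7 were called in WT, 2 of them with a fall (48.3% of all genes called), and 9 in *Cpeb4*-/- cells, 4 of them with a fall (50.3%).

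The direction of the small rises depended on the scaling. Quantile normalization, which forces every library to the same distribution, left *Acod1* up at 6 hr (by 3.49 in WT cells, by 3.38 in *Cpeb4*-/-) and *Idh1*, *Idh2* and *Fh1* down, but turned *Cs*, *Ogdh*, *Mdh2* and *Slc25a1* to falls of 0.10, 0.34, 0.39 and 0.15 in WT at 6 hr. On the deposited scale, the 2086 genes with a mean rlog of 11 to 13 in WT rose by a median of 0.39 at 6 hr, while all tested genes had a median change of −0.02. The rises of *Ogdh* (0.18), *Mdh2* (0.15) and *Slc25a1* (0.31) were below that median and that of *Cs* (0.55) above it. The genotype differences at 6 and 9 hr of *Idh1* and *Idh2* were 0.30 and 0.35, and 0.18 and 0.32, after quantile normalization, and all 4 stayed called.

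**Figure D2:**
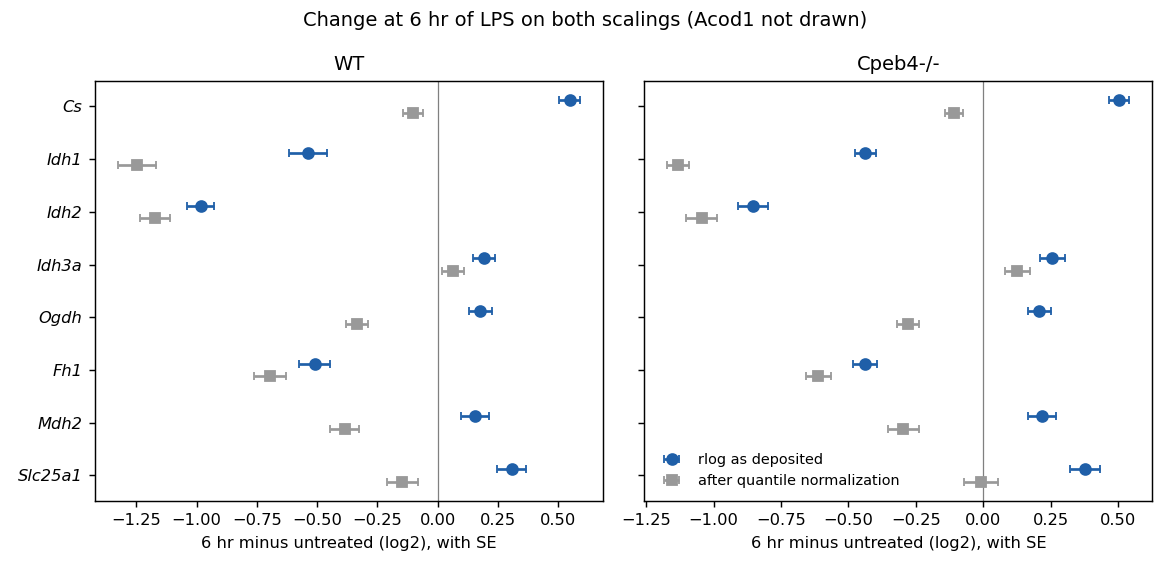
Change from untreated to 6 hr of LPS (log2, bars ± SE) of 8 genes in WT (left) and *Cpeb4*-/- cells (right), with circles for deposited rlog values and squares after quantile normalization; *Acod1*, at 4.30 and 4.13, is off the scale and not drawn. *Idh1*, *Idh2* and *Fh1* are below 0 on both scalings, and *Cs*, *Ogdh*, *Mdh2* and *Slc25a1* change sign.

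Between the genotypes, 0 of 9 genes were called in untreated cells (1.31% of all genes), 0 after 1 hr (1.91%), 0 after 3 hr (3.68%), 3 after 6 hr (16.3%) and 2 after 9 hr (7.91%), and all 5 calls were higher in *Cpeb4*-/-. With limma at an unadjusted p under 0.05 the counts were 1, 4, 2, 5 and 3. Over all genes they were 2306 of 13095, 4631 of 13118, 3067 of 13083, 3948 of 13039 and 3503 of 13008. With the mouse as a block the calls were 0, 4, 1, 2 and 3, against 3.16%, 33%, 10.6%, 16.3% and 18.1% of all genes. The fit of all 40 libraries without the block gave the same 5 counts for the 9 genes. Over all 13103 genes it called 326, 4182, 1311, 2039 and 2280. The median difference of the 9 genes was 0.07 at 6 hr and 0.02 at 9 hr, where that of all tested genes was −0.02 and 0.004. Groups did not overlap for 1 gene in untreated cells (10.5% of all genes), 2 after 1 hr (15.7%), 0 after 3 hr (13.6%), 3 after 6 hr (20.2%) and 3 after 9 hr (16.9%). The interaction with time called 0 of 9 genes for 1 hr (0.00763%), 0 for 3 hr (0.206%), 0 for 6 hr (2.94%) and 1 for 9 hr (1.76%), where 0, 0, 0 and 3 had an unadjusted p under 0.05. Of all 13103 genes tested, 206, 659, 1977 and 1569 had such a p. With the mouse as a block the interaction called *Idh2* and *Acod1* (−0.26 ± 0.07, adjusted p = 0.034, and 0.16 without the block) at 9 hr, against 4.99% of all genes. After quantile normalization, without the block, the *Acod1* interaction at 9 hr was −0.08 (limma adjusted p = 0.92).

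**Figure D3:**
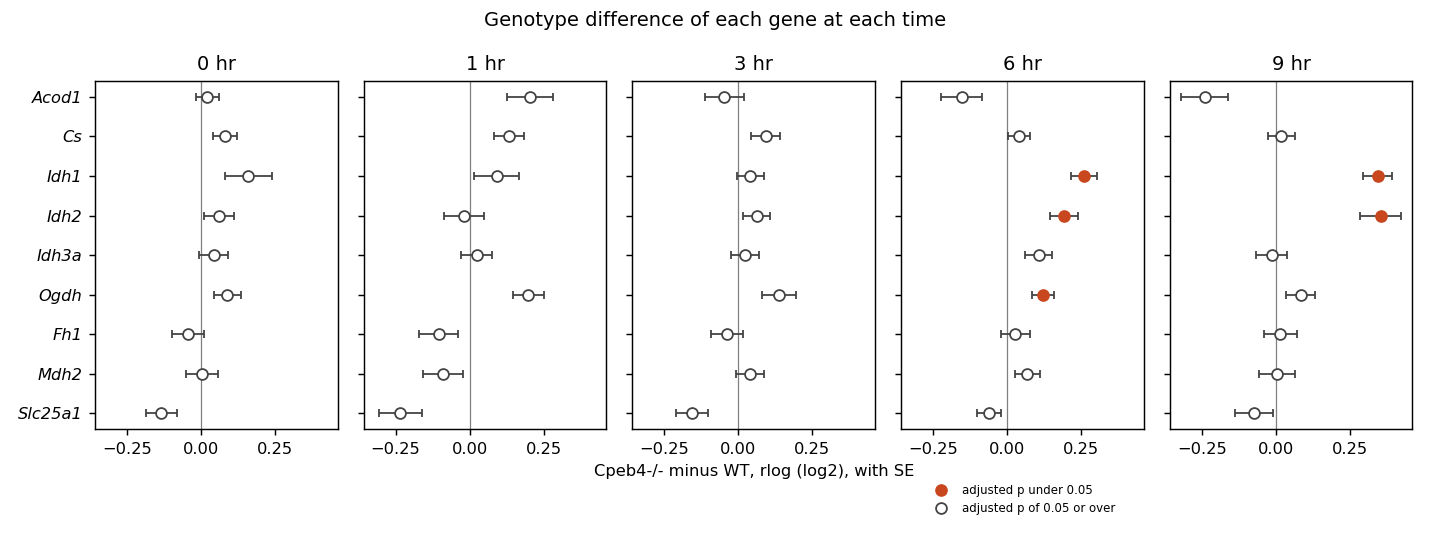
Difference in rlog (log2) between *Cpeb4*-/- and WT for the 9 genes at each time, with bars of ± SE over 4 mice per genotype and filled circles for a limma adjusted p under 0.05. *Idh1*, *Idh2* and *Ogdh* are filled at 6 hr and *Idh1* and *Idh2* at 9 hr, all to the right of 0.

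The 44 other genes of the pathway were taken in 5 lists. Of the 41 expressed (*Me3*, *Oxgr1* and *Pdk4* were not), the 6 hr comparison called 4 upward and 3 downward in *Cpeb4*-/- cells (16.3% of all genes were called) and the 9 hr comparison called 5 upward and 0 downward (7.91%). At 6 hr the counts were 3 and 0 with eBayes without trend (1463 of 13039 genes called). They were 2 and 0 without WT mouse 88 (1580 of 13036) and 5 and 1 after quantile normalization (2023 of 13071). With no filter on low values they were 1 and 1 (1288 of 20784), and without *Cpeb4*-/- mouse 2 they were 2 and 1 (1347 of 13042). Without that mouse they were 11 and 11 at 9 hr, where 4575 of 13005 genes were called. With the mouse as a block they were 6 and 4 at 6 hr (16.3%), and 9 and 5 at 9 hr (18.1%). Of the 12 other TCA cycle subunits, *Suclg2*, the GTP-forming beta subunit of succinyl-CoA ligase, was higher at both times, at 6.56 to 6.67 against 6.15 to 6.55 at 6 hr (0.37 ± 0.10, adjusted p = 0.025) and at 6.30 to 6.44 against 5.76 to 5.88 at 9 hr (0.54 ± 0.08, adjusted p = 0.0051). Its call held in 10 of 16 alternatives at 6 hr (adjusted p up to 0.073) and in all 16 at 9 hr. *Idh3b*, a regulatory subunit of the same NAD-dependent enzyme as *Idh3a*, was lower at 6 hr (−0.15 ± 0.04, adjusted p = 0.022, and 0.10 after quantile normalization). The median difference of that list was −0.04 at 6 hr and −0.07 at 9 hr.

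Of the 7 genes that use citrate or malate in the cytosol, *Me1* (cytosolic malic enzyme, a source of NADPH) was higher by 0.40 ± 0.09 at 6 hr and 0.26 ± 0.07 at 9 hr (adjusted p = 0.011 and 0.039, the latter 0.051 after quantile normalization), and *Aco1*, the cytosolic aconitase that also binds iron-responsive elements, by 0.19 ± 0.05 at 6 hr (adjusted p = 0.022). The *Aco1* call held in 10 of 16 alternatives (adjusted p up to 0.068), and those of *Me1* in 15 at 6 hr and in 7 at 9 hr (up to 0.065 and 0.12). *Acaca*, which makes malonyl-CoA for fatty acid synthesis, was higher at 9 hr, at 9.01 to 9.18 against 8.53 to 8.71 (0.43 ± 0.07, adjusted p = 0.0060). *Mdh1*, the cytosolic malate dehydrogenase, was lower at 6 hr (−0.17 ± 0.04, adjusted p = 0.025, and 0.074 after quantile normalization). The median of the list was 0.18 at 6 hr and 0.22 at 9 hr.

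Among the pyruvate dehydrogenase genes, *Pdk1*, a kinase that inhibits the complex, was called at 9 hr, with rlog values of 11.01 to 11.16 in *Cpeb4*-/- and 10.45 to 10.60 in WT cells (0.55 ± 0.06, 1.46-fold, adjusted p = 0.00082), and 0 of 9 expressed genes at 6 hr. In the list of anaplerosis and mitochondrial carriers, *Glud1*, glutamate dehydrogenase, was higher at 6 hr (0.22 ± 0.05, adjusted p = 0.0087), the aspartate-glutamate carrier *Slc25a12* lower at 6 hr (−0.24 ± 0.06, adjusted p = 0.018) and *Me2*, the mitochondrial malic enzyme, higher at 9 hr (0.26 ± 0.06, adjusted p = 0.023). *Glud1* kept its call in all 16 alternatives, *Slc25a12* in 11 (adjusted p up to 0.087) and *Me2* in 10 (up to 0.079). Of the itaconate handling genes, *Clybl*, which degrades citramalyl-CoA, and the exporter *Abcg2* were expressed, and neither was called at 6 or 9 hr.

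**Figure D4:**
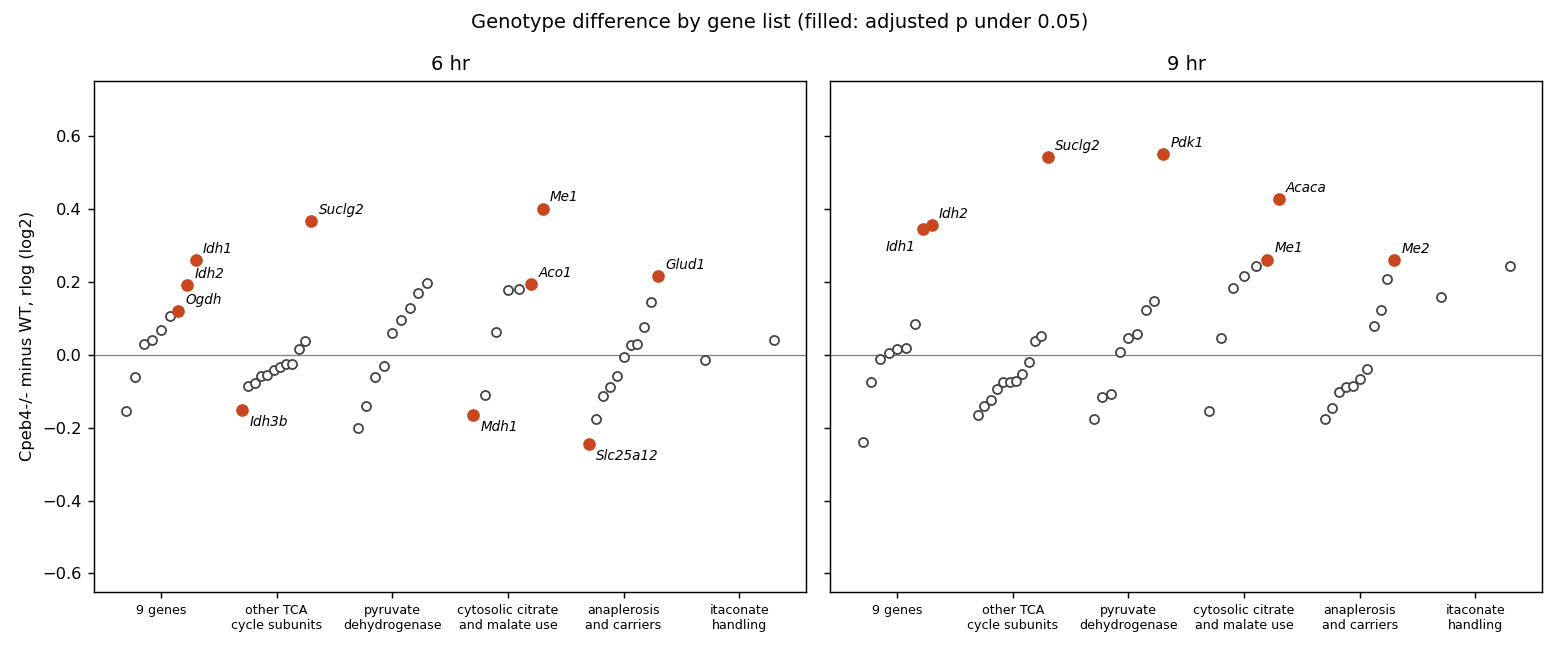
Difference in rlog (log2) between *Cpeb4*-/- and WT at 6 hr (left) and 9 hr (right) for each expressed gene of the 9 and of the 5 other lists, 1 point per gene in order of its value. Filled, named points have a limma adjusted p under 0.05, such as *Suclg2* at 0.37 and 0.54 and *Pdk1* at 0.55 at 9 hr.

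In WT cells at 6 hr of LPS 18 of these 41 genes were higher and 15 lower than in untreated cells, beside 77.9% of all genes called. After quantile normalization the counts were 11 and 25, beside 76.9%. *Dld*, the E3 subunit shared by the *Ogdh* and pyruvate dehydrogenase complexes, rose from 11.42 to 12.31 (0.89 ± 0.04, and 0.37 after quantile normalization). *Dlst*, the E2 subunit that works with *Ogdh*, rose by 0.41 ± 0.04, but after quantile normalization *Dlst* changed by −0.15. *Idh3g*, a regulatory partner of *Idh3a*, fell by 0.55 ± 0.05. Pyruvate dehydrogenase kinases diverged: *Pdk3* rose by 1.15 ± 0.08, and *Pdk2* fell by 2.75 ± 0.09, from 7.95 to 5.19. *Slc25a12* rose by 1.67 ± 0.05, while the related carrier *Slc25a13* fell by 1.18 ± 0.08. *Abcg2* fell by 0.85 ± 0.08 and *Clybl* by 0.38 ± 0.08, the latter by 0.01 after quantile normalization. The adjusted p of these genes was 0.00030 or less.

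Across the 10 group means on the deposited scale, which share mice and scaling, the genes followed a few courses. *Idh2* and *Fh1* were the most alike pair of the 9 (Pearson r = 0.97), and *Idh2* ran opposite to *Slc25a1* (r = −0.93). After quantile normalization the WT changes of *Idh2* and *Slc25a1* from untreated were −1.17 and −0.15 at 6 hr, and −1.54 and 0.18 at 9 hr. The correlations were not computed on that scale. Among all expressed genes the course of *Acod1* was most like those of *Slc2a6*, *Ido2* and *Ccl9* (r = 0.997, 0.992 and 0.991). *C1qtnf12*, *Ada* and *Ssrp1* were nearest to *Idh2* (r of 0.994 or more), and *Snx14*, *Olfml2b* and *Rab4a* to *Idh1* (r = 0.981, 0.980 and 0.977). *Alpk1*, *Cers6* and *Tapt1* were nearest to *Cs*, *Slc29a1*, *Prps1* and *Abcb4* to *Fh1*, and *Pilrb2* with the proteasome subunit genes *Psma7* and *Psmb3* to *Slc25a1*, with r of 0.979 or more. *Kyat3*, *Sf3a3* and *Ccnc* were nearest to *Idh3a*, *Desi2*, *Washc5* and *Csf2rb2* to *Ogdh*, and *Dnmt3l*, *Wnt6* and *Psmd1* to *Mdh2*, with r of 0.954 or more. With 10 points these are descriptions of course alone.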

How the data were processed

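BMDM libraries of 4 WT and 4 *Cpeb4*-/- mice at 5 times were used, 40 in all. Per the labels and the study's methods, poly(A) libraries were aligned with STAR 2.3.0e to mm10, read counts per gene were made with featureCounts, and the authors deposited the regularized log transformation of DESeq2, a log2 scale corrected for library size. The table holds 27179 genes and 0 value columns were left unused. Depth per library is not in it. Whether counting used strand is not given in the sources used here.

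Genes whose rlog averaged log2(5) or more across a fit's libraries were tested with limma 3.58.1 in R 4.3.3 (lmFit, eBayes with trend), with Benjamini-Hochberg adjustment over all genes tested and a threshold of 0.05. Genotypes were compared within each time (8 libraries), LPS within each genotype (20 libraries) and the interaction over 40 libraries. The fits were also run on simulated data in which every library varied independently with the same spread at all times. That simulation cannot show how the fits behave where libraries of 1 mouse deviate together. Each mouse gave all 5 times, and libraries of 1 mouse deviated together (median r = 0.29, 68 of 80 pairs over 0.1, and −0.09 between mice). Fits with the mouse as a block are therefore given where they change a call. For the genotypes, compared within a time, each mouse has 1 library, and the block fit also pools the spread over all 40 libraries. Without the block, the 40-library fit called as many of the 9 genes at each time. No 2 libraries were identical.

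The genes and lists were chosen with earlier results of these data known. Named are the 9 genes, *Cpeb4*, up to 3 called genes per list and direction with the smallest adjusted p (genotypes at 6 and 9 hr, WT at 6 hr) and the 3 genes nearest to each of the 9 in Pearson r; some genes this rule names are not reported here. 3′-UTRs are those of GENCODE M21. Alternatives were other filters, eBayes settings, quantile normalization, batch as a covariate, 40-library fits, the block and leaving out each mouse.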

Additional observations from a re-analysis of the deposited data

Results flagged for a closer look

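The *Idh2* difference between genotypes at 9 hr exceeded that in untreated cells by 0.29 on the log2 scale, tested as an interaction (limma adjusted p = 0.041). From untreated to 9 hr *Cpeb4*-/- cells fell by 1.09 and WT cells fell by 1.38, in 4 of 4 mice each. Leaving out any 1 mouse gave 0.24 to 0.34 with adjusted p of 0.055 to 0.13.

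In 4 of 90 groups of 4 libraries, 1 gene in 1 group each, a single library lay far from the other 3, measured as its gap to the nearest value over the whole range (Dixon's critical value 0.829 for 4). Chance gives about 1 in 20. *Cpeb4*-/- mouse 2 was the high library for *Idh2* at 6 hr (10.11 against 9.99 to 10.005, ratio 0.853), for *Fh1* at 1 hr (10.55 against 10.41 to 10.43, ratio 0.854) and for *Mdh2* at 9 hr (12.27 against 12.04 to 12.08, ratio 0.863). *Cpeb4*-/- mouse 55 was the high library for *Mdh2* in untreated cells (11.91 against 11.79 to 11.81, ratio 0.854). Without mouse 2 the *Idh2* difference at 6 hr was 0.16 (adjusted p = 0.062), and the part of these libraries in the genotype results was not tested further.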

How the results depend on the processing

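Over the genotype differences, the called LPS changes and the 9 hr interactions of *Acod1*, *Idh1* and *Idh2*, 1337 of 1455 values under an alternative kept direction and side of the threshold, 59 lost the call, 20 gained it and 39 turned. With quantile normalization the rises turned to *Cs* −0.17 and *Slc25a1* −0.12 at 3 hr in WT. At 6 hr in WT they became *Cs* −0.10, *Ogdh* −0.34, *Mdh2* −0.39 and *Slc25a1* −0.15, and at 9 hr *Ogdh* −0.13 and *Mdh2* −0.10. In *Cpeb4*-/- cells they became *Cs* −0.11 and *Ogdh* −0.055 at 1 hr. At 3 hr they were *Cs* −0.13, *Ogdh* −0.26, *Mdh2* −0.24 and *Slc25a1* −0.10, at 6 hr *Cs* −0.11, *Ogdh* −0.28, *Mdh2* −0.30 and *Slc25a1* −0.0073, and at 9 hr *Cs* −0.010, *Ogdh* −0.14 and *Mdh2* −0.078. The step of *Cs* from 6 to 9 hr in *Cpeb4*-/- cells became 0.10, and the 3 hr genotype difference of *Acod1* 0.040. The cause was not tested.

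Of 27 LPS changes of the 9 genes that did not pass on the deposited scale, which that tally leaves out, 19 passed after quantile normalization and 7 of these also turned. These were *Cs* (−0.16), *Ogdh* (−0.16) and *Idh1* (−0.23) at 1 hr, *Ogdh* (−0.29) and *Mdh2* (−0.28) at 3 hr and *Cs* from 6 to 9 hr (0.14) in WT, and *Mdh2* at 1 hr in *Cpeb4*-/- cells (−0.21).

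Genotype differences near 0, none called, also turned with 1 mouse left out. Their ranges were −0.026 to 0.046 for *Mdh2* untreated, −0.058 to 0.018 for *Idh2* and −0.010 to 0.046 for *Idh3a* at 1 hr, and −0.0075 to 0.067 for *Fh1* at 6 hr. At 9 hr they were −0.0060 to 0.044 for *Cs*, −0.036 to 0.012 for *Idh3a*, −0.014 to 0.049 for *Fh1* and −0.050 to 0.028 for *Mdh2*.

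Of the 9 genes, the genotype comparison called 4 at 1 hr and 1 at 3 hr with all 40 libraries in one fit (4182 and 1311 of 13103 genes called). The counts were the same with the replicate block (4323 and 1393). Quantile normalization called 4 and 7 genes at 1 hr of LPS in WT and *Cpeb4*-/- cells, 3 and 6 of them with a fall (38.1% and 49% of all genes called), and 7 between 6 and 9 hr in WT. The 9 hr interaction called 0 with quantile normalization or eBayes without trend and 2 with the replicate block. With 1 mouse left out 13004 to 13127 genes were tested, and the calls over all genes stand in brackets. The genotype counts were 0 at 0 hr (44 to 163), 0 to 3 at 1 hr (40 to 2440) and 0 to 2 at 3 hr (76 to 2584). They were 1 to 3 at 6 hr (1347 to 2331) and 2 to 4 at 9 hr (387 to 4575). Each interaction called 0 (0 to 2, 5 to 21, 84 to 391 and 89 to 226). The LPS counts in WT were 3 to 6 at 3 hr (8077 to 8531) and 2 to 5 between 6 and 9 hr (5566 to 6262). In *Cpeb4*-/- cells they were 1 to 2 at 1 hr (4332 to 6010) and 5 to 7 at 3 hr (8506 to 9221). With the mouse as a block *Cs* also passed between genotypes at 1 hr (0.13, adjusted p = 0.012) and *Mdh2* from 6 to 9 hr in WT (0.13, adjusted p = 0.014). Beside these and the calls named with the block in the results, it changed no other call of the 9 genes between genotypes, against untreated, from 6 to 9 hr or in the interactions. Over all genes the block called 72, 1032 and 654 interactions at 3, 6 and 9 hr, against 27, 385 and 231 without it, and quantile normalization 227 at 6 hr.

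Over all genes, genotype calls over the alternatives were 44 to 414 untreated, 40 to 4323 at 1 hr, 76 to 2584 at 3 hr, 1288 to 2331 at 6 hr and 387 to 4575 at 9 hr. Without the filter on low values they were 50, 53, 167, 1288 and 582 for the 5 times in order. Depth is unknown here, and with 4 mice a group the SE of a genotype difference of the 9 genes was 0.04 to 0.08, which limits what can be seen.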
